A study of Mus musculus with 21 samples.

Results

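The genes of the proteasome were examined in liver tumours and livers of mice. Members were the non-control probes of the arrays whose gene name is Psma, Psmb, Psmc, Psmd, Psme, Psmf or Psmg followed by a number, with the brightest probe standing for each gene. This gave 48 genes of the 30222 gene names on the arrays, of which 46 were among the 23568 names well above background on at least 4 of 21 arrays. All 46 were above background on every array. The remaining pair were Psma8, an alpha subunit known from the testis, and Psmb11, the catalytic subunit of the thymus, which were above background on 2 arrays and 1 array. Psmb8, Psmb9 and Psmb10, the catalytic subunits of the immunoproteasome, were kept apart, and the other 43 measured genes are called constitutive members here. The label is only a name for this set, which also holds the interferon-inducible Psme1 and Psme2, assembly chaperones and Psmf1.

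The study set tumours that arise in Trp53 knockout mice beside tumours induced by a carcinogen, each with a liver that carries the same genotype. KO tumours were 6 tumours of 5 untreated Trp53 knockout (KO) mice, labelled hepatocellular and cholangiocellular carcinoma in 1 combined label, and KO livers came from 4 untreated Trp53 knockout mice. DEN tumours were 7 hepatocellular carcinomas of 5 mice with wild-type Trp53 that had been injected with N-nitrosodiethylamine (DEN, a liver carcinogen, 10 µg per g body weight) at day 15, and WT livers came from 4 untreated mice with wild-type Trp53. All mice had a C57BL/6J background. The sources used here do not give the cells in which Trp53 was deleted, the promoter that drove the deletion, sex or age, and a number shared by tumour titles was read as a mouse with several tumours.

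The proteasome degrades proteins marked with ubiquitin. Its 20S core is a barrel of stacked alpha and beta rings, whose beta subunits Psmb5, Psmb6 and Psmb7 cut proteins with chymotrypsin-like, caspase-like and trypsin-like specificity. The 19S cap (Psmc ATPases and Psmd lid and base subunits) binds and unfolds the substrate, and chaperones such as Psmg1 to Psmg4 and Psmd5, Psmd9 and Psmd10 assemble the particle. Interferon-gamma induces Psmb8, Psmb9 and Psmb10, which take the places of Psmb5, Psmb6 and Psmb7 in newly made cores and change the peptides offered to MHC class I molecules. Psme1 and Psme2 form the PA28 activator, Psme3 its nuclear relative, Psme4 the PA200 activator, and Psmf1 (PI31) binds the core and was described as an inhibitor.

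The stretches of 200 bases that precede the annotated start of 6 members are shown because these genes carry the contrasts described below: the immunoproteasome subunits, the counterparts of Psmb8 and Psmb9, and Psmd10. They are RefSeq sequences of build GRCm38.p6, 5′ to 3′ on the gene's strand. Capitals mark matches, on either strand, to TGACNNNGC (the core of the antioxidant response element that NFE2L1 and NFE2L2 bind), GAAA, any 2 bases and GAAA (the letters of an interferon-stimulated response element) or CCAAT (the box bound by NF-Y).
Psmb8 (chr17:34197995-34198194, plus strand): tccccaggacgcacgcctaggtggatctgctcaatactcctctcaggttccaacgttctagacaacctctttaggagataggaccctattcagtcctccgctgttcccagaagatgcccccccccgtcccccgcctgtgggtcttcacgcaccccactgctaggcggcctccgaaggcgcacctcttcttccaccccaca
Psmb9 (chr17:34187331-34187530, minus strand): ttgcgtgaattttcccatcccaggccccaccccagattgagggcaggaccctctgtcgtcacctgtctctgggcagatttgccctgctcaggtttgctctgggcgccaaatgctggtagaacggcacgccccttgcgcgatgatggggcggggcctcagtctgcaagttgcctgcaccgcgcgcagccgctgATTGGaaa
Psmb10 (chr8:105938393-105938592, minus strand): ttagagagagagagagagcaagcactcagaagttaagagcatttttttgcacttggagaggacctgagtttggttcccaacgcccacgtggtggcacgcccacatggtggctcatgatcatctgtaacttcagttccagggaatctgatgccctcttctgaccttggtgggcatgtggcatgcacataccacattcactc
Psmb5 (chr14:54617996-54618195, minus strand): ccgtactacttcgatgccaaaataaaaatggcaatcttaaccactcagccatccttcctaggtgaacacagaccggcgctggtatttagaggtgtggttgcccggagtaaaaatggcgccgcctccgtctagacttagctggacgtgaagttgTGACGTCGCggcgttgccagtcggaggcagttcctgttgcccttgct
Psmb6 (chr11:70525157-70525356, plus strand): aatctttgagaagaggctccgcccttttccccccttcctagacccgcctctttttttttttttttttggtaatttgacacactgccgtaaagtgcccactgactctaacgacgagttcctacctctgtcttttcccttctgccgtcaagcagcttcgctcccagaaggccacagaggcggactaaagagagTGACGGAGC
Psmd10 (chrX:140956712-140956911, minus strand): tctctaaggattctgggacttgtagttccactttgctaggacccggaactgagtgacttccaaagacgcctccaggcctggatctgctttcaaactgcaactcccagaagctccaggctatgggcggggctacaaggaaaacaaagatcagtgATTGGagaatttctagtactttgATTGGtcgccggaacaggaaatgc
The marked letters begin 8 bases before the start in Psmb9, 47 in Psmb5, 9 in Psmb6, and 47 and 24 in Psmd10. None of the 3 motifs was in the stretches of Psmb8 and Psmb10.

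Windows of 250 bases before the start were matched for 40 of the 48 members. TGACNNNGC was present in 5 of 37 members other than the immunoproteasome subunits (13.5%), against 10.1% of the 27025 genes in the table. CCAAT was present in 13 of those 37 (35.1%), against 34.5% of all genes. Neither share stood far from that of all genes. The interferon-stimulated response element letters were in 3 of the 37 (8.11%, against 3.04%) and in none of the 3 immunoproteasome windows. A match of letters is a description of the window only.

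A level is given as the log2 of the probe's processed intensity minus the 75th percentile of the same array, so 0 is the level of that percentile. Levels of different probes cannot be compared with each other. The 75th percentile of the intensity ranged over arrays between 951 and 4258 for KO tumours, between 499.6 and 685 for KO livers, between 512 and 884 for DEN tumours and between 476 and 729 for WT livers. The KO tumours of mice 4 and 5, the brightest arrays, shared a slide and a scan day of their own, and the WT livers did too. No slide held more than 1 group, so group and slide cannot be told apart in any comparison, apart from what the spread between the 2 slides of KO tumours and the 2 of DEN tumours allows as a random block. WT livers cannot be told apart from their scan day either, whereas 1 scan day held KO livers and some KO and DEN tumours. Fits with slide or scan day as a block used single arrays, so tumours of 1 mouse counted as separate samples there. Trp53 itself was between -5.35 and -4.13 in KO tumours and between -6.47 and -4.91 in KO livers, against -2.75 to -2.48 in DEN tumours and -3.86 to -3.32 in WT livers, and was well above background on 5 of 6, 1 of 4, 7 of 7 and 4 of 4 arrays of these groups, so every knockout mouse was below every mouse with wild-type Trp53. The sources used here do not give the deleted exons, and the position of the probe relative to them is not known.

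Markers of cell types moved with the groups. All 5 hepatocyte markers passed the test as lower and all 5 cholangiocyte markers as higher in KO tumours against KO livers. Of all genes tested 29.6% were lower and 21.6% higher in that comparison. The summed linear level of the hepatocyte markers was between 383 and 822 times the 75th percentile in KO tumours, between 2204 and 2716 times in KO livers, 1150 to 2108 in DEN tumours and 1731 to 2201 in WT livers. That of the cholangiocyte markers was between 45.3 and 241 in KO tumours, between 1.58 and 2.73 in KO livers, 6.92 to 34.1 in DEN tumours and 1.49 to 2.95 in WT livers. Spp1 was the brightest of the 5 in every tumour, so in tumours this sum mostly followed Spp1. KO tumour mouse 4 had Krt19 at -3.98, below every KO liver, and Krt7 at -5.11, within the range of KO livers. In DEN tumours against WT livers Sox9 and Spp1 were higher, while Krt19, Krt7 and Epcam were uncalled (limma adjusted p = 0.81, 0.899 and 0.81). Of 14 leukocyte markers 8 were higher and 1 lower in KO tumours against KO livers, and 4 higher in DEN tumours against WT livers, where 10.6% of all genes were higher. The marker lower in KO tumours was Clec4f (-4.67). The 14 summed to between 35.3 and 111 in KO tumours, between 26.2 and 29.8 in KO livers, 21.2 to 42.6 in DEN tumours and 19.9 to 34.8 in WT livers. Csf1r was the brightest of the 14 in every mouse and weighed most in this sum, to which the T and B cell markers added little in most mice. In these bulk samples fewer cells of a type and less RNA per cell cannot be told apart, and the part that cell mixture has in the results below was not tested.

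The immunoproteasome subunit genes did not move as a unit. Psmb8 was higher in both kinds of tumour than in the liver of the same Trp53 genotype. Psmb9 was higher in KO tumours than in DEN tumours, and Psmb10 was higher in KO livers than in WT livers. Their probes lie at chr17:34337771-34337830, chr17:34319174-34319233 and chr8:108459677-108459736 (mm9, as the files give them).

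Psmb8 (LMP7, the replacement of Psmb5) was at 3.81, 3.56, 3.35, 3.19 and 3.14 in KO tumours, against 3.05, 2.71, 2.73 and 2.50 in KO livers. In DEN tumours it was at 2.95, 2.66, 2.95, 3.29 and 2.997, against 1.99, 2.02, 2.24 and 2.63 in WT livers. All KO tumours were above all KO livers, and all DEN tumours above all WT livers. The change in KO tumours against KO livers was 0.66 ± 0.20 on the log2 scale (± SE, a fold of 1.58, limma adjusted p = 0.00931). Between DEN tumours and WT livers it was 0.75 ± 0.20 (fold 1.68, adjusted p = 0.0113). Both calls were lost when slide was a random block (adjusted p = 0.166 and 0.208), with changes of 0.62 and 0.82. On the scan day that held both groups, the change in KO tumours against KO livers was 0.83 (adjusted p = 0.0121). The difference between these tumour effects was -0.09 ± 0.28 (adjusted p = 0.836, 95% interval -0.67 to 0.50), which does not show that they are alike.

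Psmb9 (LMP2, the replacement of Psmb6) was at 2.99, 3.24, 3.19, 3.24 and 3.12 in KO tumours, against 2.63, 2.59, 2.86 and 2.15 in KO livers. DEN tumours had 2.28, 1.58, 2.64, 3.04 and 2.40, against 2.24, 2.29, 2.38 and 2.92 in WT livers. KO tumours lay close together (SD 0.11, n = 5) and above every KO liver, whereas DEN tumours were spread (SD 0.54, n = 5) across the range of WT livers. The change in KO tumours against KO livers was 0.60 ± 0.25 (adjusted p = 0.0513), just outside the threshold of 0.05. It passed after normexp background correction and quantile normalization (1.10, adjusted p = 0.000685). That version is called quantile scaling here, although its input signal and background correction differ from the main values too. KO tumours were 0.77 ± 0.23 above DEN tumours (fold 1.70, adjusted p = 0.0097), with overlap, and on the scan day that held both groups the change was 0.66 (adjusted p = 0.15). Slide as a random block ended this call (0.67, adjusted p = 0.193). DEN tumours and WT livers differed by -0.07 ± 0.25 (adjusted p = 0.876). The second Psmb9 probe, above background on 4 arrays only, had changes of 0.47 in KO tumours against KO livers and -0.53 in DEN tumours against WT livers.

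Psmb10 (MECL-1, the replacement of Psmb7) had its highest levels in KO livers. It was at 4.21, 5.02, 4.39, 4.61 and 4.46 in KO tumours, against 5.72, 5.47, 5.43 and 5.35 in KO livers. DEN tumours had 4.51, 3.94, 3.63, 4.69 and 4.48, against 4.56, 4.58, 4.30 and 4.28 in WT livers. Every KO liver was above every mouse of the other groups. KO livers exceeded WT livers by 1.06 ± 0.23 (fold 2.09, adjusted p = 0.0116), with changes of 0.99 to 1.11 and the call kept in 18 of 18 fits that left out a mouse. Each of these groups filled a slide of its own, and the call was lost with slide as a random block (adjusted p = 0.587). In the same comparison 1 of 14 leukocyte markers was called higher and 0 lower, with 6 of the 14 changes positive. That marker was Emr1 of macrophages (1.38 ± 0.36, limma adjusted p = 0.0248). Of 5 cholangiocyte markers 1 was lower, Sox9 (-1.40 ± 0.39, adjusted p = 0.0364), and 0 higher, with 3 of the 5 changes positive. Emr1 and Sox9 did not overlap between the groups. Of all genes 1.83% were higher and 6.64% lower. The part of these markers in the Psmb10 result was not tested. In KO tumours against KO livers Psmb10 was lower (change -0.96 ± 0.22, adjusted p = 0.00166), but this change was 0.01 (adjusted p = 0.973) with quantile scaling.

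**Figure D1:**
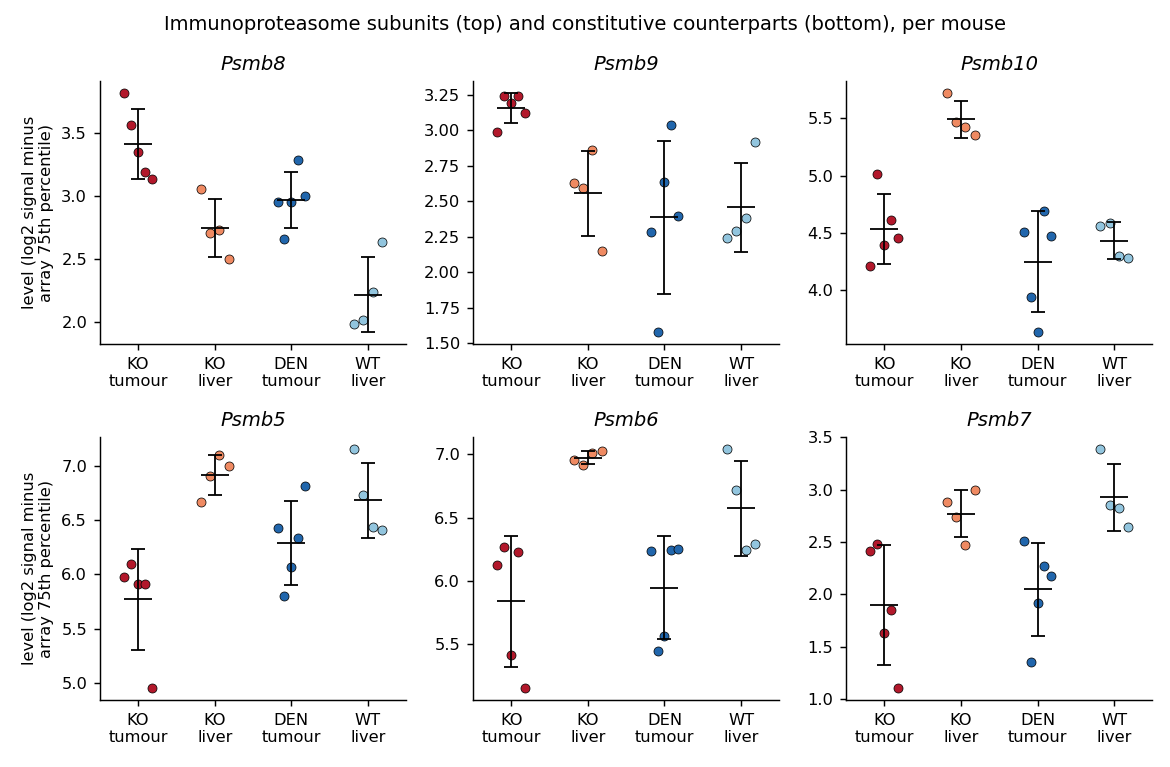
Levels of the immunoproteasome genes Psmb8, Psmb9 and Psmb10 (top) and of Psmb5, Psmb6 and Psmb7, whose places they take (bottom), as log2 signal minus the array's 75th percentile. Each point is a mouse, and bars are the mean ± SD of 5 KO tumour, 4 KO liver, 5 DEN tumour and 4 WT liver mice. Psmb8 in KO tumours lies above KO livers without overlap, and Psmb10 is highest in KO livers (5.35 to 5.72).

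The constitutive counterparts were lower in KO tumours than in KO livers under the main scaling, and passed in neither direction under quantile scaling. Psmb5 was at 5.98, 6.10, 5.91, 5.91 and 4.95 in KO tumours, against 6.67, 6.91, 7.10 and 6.99 in KO livers (change -1.15 ± 0.25, adjusted p = 0.00121). Psmb6 was at 6.13, 6.27, 5.42, 6.23 and 5.15 in KO tumours, against 6.95, 6.92, 7.01 and 7.02 in KO livers (change -1.14 ± 0.27, adjusted p = 0.00195). No KO tumour reached the level of a KO liver for either gene. Psmb7 was at 2.42, 2.48, 1.63, 1.85 and 1.10 in KO tumours, against 2.88, 2.74, 2.47 and 3 in KO livers (change -0.88 ± 0.29, adjusted p = 0.0174), with overlap. Quantile scaling reduced the 3 changes to -0.13, -0.10 and -0.40 (adjusted p = 0.586, 0.656 and 0.183). The call of Psmb7 was also lost with slide as a random block (adjusted p = 0.139), with scan day as a block (-0.60, adjusted p = 0.0902) and without the bright arrays (adjusted p = 0.0912).

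The difference between an immunoproteasome gene and its counterpart in the same mouse does not move with a constant shift of an array. It is given relative to its mean in WT livers, as a description with no test. Psmb8 minus Psmb5 averaged 2.10 ± 0.37 in KO tumours and 0.29 ± 0.39 in KO livers (SD, n = 5 and 4). In DEN tumours it averaged 1.14 ± 0.33, against 0 ± 0.60 in WT livers (n = 5 and 4). The lowest KO tumour (1.75) was above the highest KO liver (0.85) and the highest DEN tumour (1.41). Quantile scaling gave means of 1.74 in KO tumours, 0.32 in KO livers and 1.24 in DEN tumours, and there the lowest KO tumour (1.504) was no longer above the highest DEN tumour (1.51).

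Psmb9 minus Psmb6 was 1.43 ± 0.51 in KO tumours and -0.30 ± 0.32 in KO livers. It was 0.56 ± 0.46 in DEN tumours and 0 ± 0.63 in WT livers. KO tumours (0.97 or more) lay above KO livers (-0.03 or less), while DEN tumours (0.16 to 1.19) overlapped WT livers (-0.69 to 0.74). Psmb10 minus Psmb7 was 1.14 ± 0.56 in KO tumours and 1.22 ± 0.26 in KO livers, whose ranges overlapped, and 0.70 ± 0.35 in DEN tumours and 0 ± 0.25 in WT livers. Quantile scaling gave means of 1.15 in KO tumours, -0.05 in KO livers and 0.61 in DEN tumours for the Psmb9 pair. For the Psmb10 pair it gave 1.56 in KO tumours and 1.15 in KO livers, the opposite order, and 0.74 in DEN tumours. Both kinds of knockout tissue lay above all WT livers for the Psmb10 pair under the main scaling (lowest 0.29 and 0.85, against a highest WT liver of 0.23). So did all DEN tumours but the lowest (0.21). Under quantile scaling all DEN tumours did (lowest 0.27, against a highest WT liver of 0.19).

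**Figure D2:**
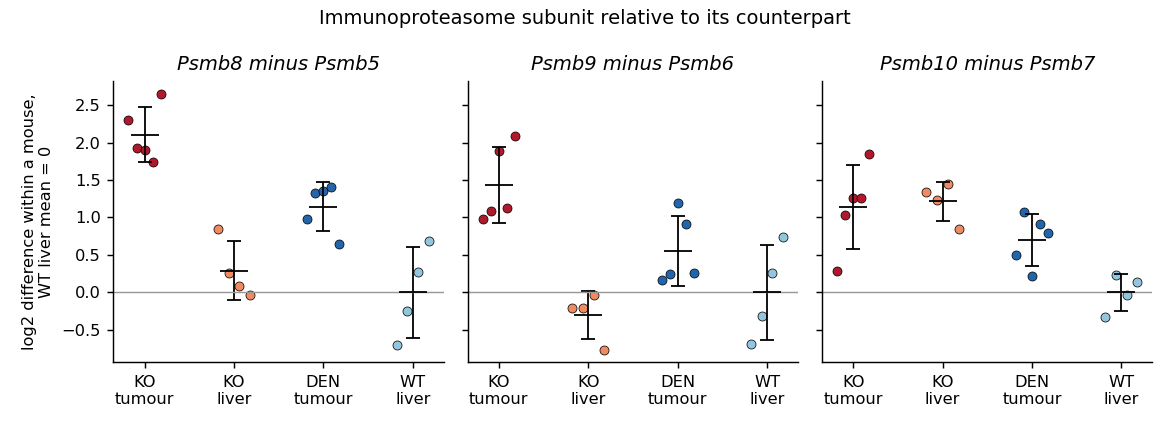
Within-mouse log2 difference between each immunoproteasome gene and the constitutive gene whose place it takes, with the WT liver mean set to 0. Points are mice and bars are mean ± SD of 5 KO tumour, 4 KO liver, 5 DEN tumour and 4 WT liver mice. For Psmb8 minus Psmb5 the KO tumours (1.75 to 2.65) stand above all other mice under the main scaling plotted here, but not above all DEN tumours under quantile scaling, and for Psmb10 minus Psmb7 KO tumours and KO livers overlap.

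Across the whole particle, most constitutive members were lower in KO tumours than in KO livers under the main scaling, and this was not so under quantile scaling. With the 75th percentile, 29 of 43 passed the test as lower, against 29.6% of all genes tested, and 1 as higher, against 21.6%. With normexp background correction and quantile normalization, 9 passed as lower (24.5% of all genes) and 8 as higher (24.8%), and 19 of the 43 changes had the opposite sign. With the 75th percentile and slide as a random block 13 were lower and 0 higher, and without KO liver mouse 4 there were 19 lower. Of the 23568 genes tested, the slide block fit called 6668, 57.2% of them lower. The fit without that mouse called 10664, 58% of them lower. The median change was -0.68 for the members and -0.22 for all genes under the main scaling, against 0.02 and -0.02 under quantile scaling. The members called lower under both scalings were Psma3, Psma4, Psma6, Psmc1, Psmc6, Psmd9, Psme3, Psmf1 and Psmg1, and 8 of these 9 were also called with slide as a random block, the exception being Psme3 (adjusted p = 0.122). That block fit used single arrays, not 1 value per mouse. The share of all genes called under both scalings was not counted. Psmd10 was the member called higher under both scalings.

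**Figure D3:**
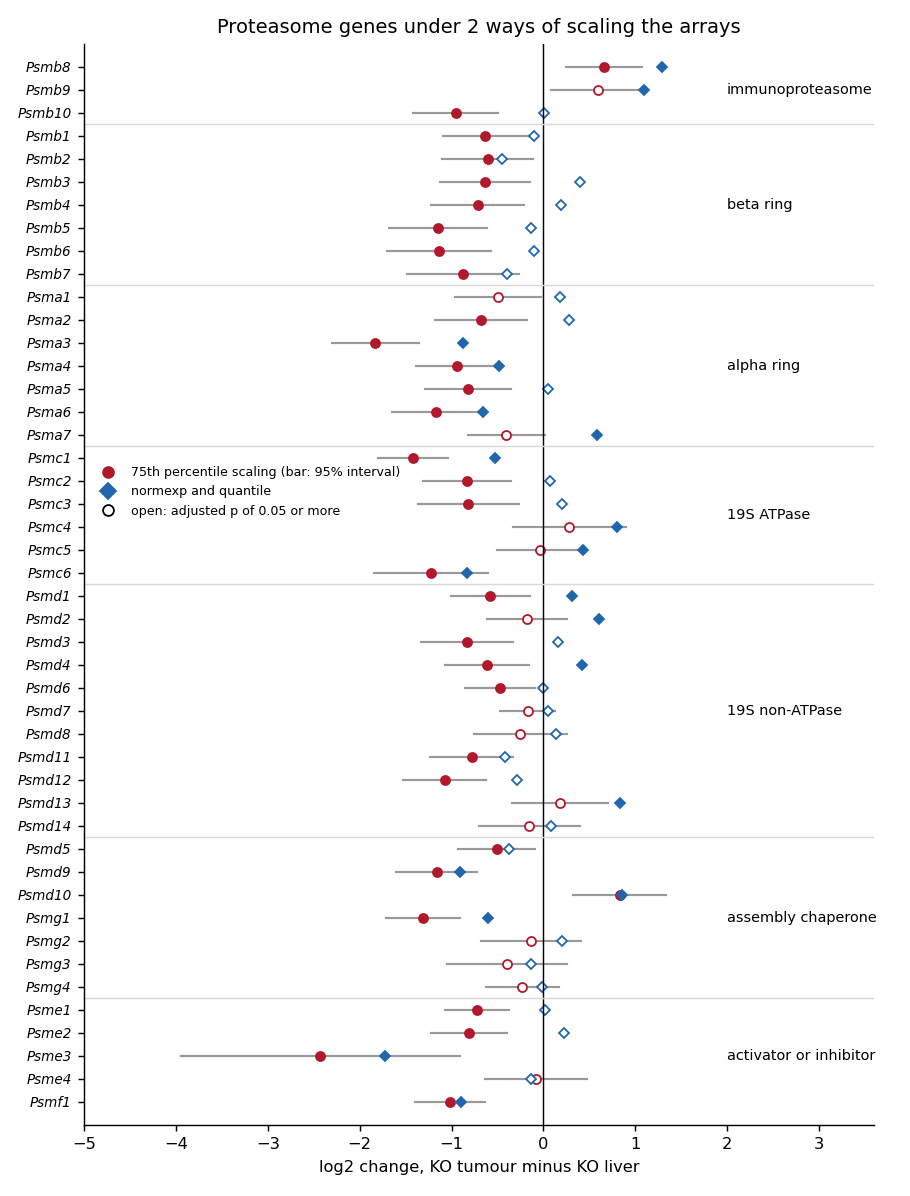
Log2 change of 46 proteasome genes, KO tumour minus KO liver, grouped by role. Red circles give the 75th percentile scaling with 95% intervals, blue diamonds the same comparison after normexp and quantile normalization, and filled symbols an adjusted p under 0.05. Among constitutive members 29 circles but 9 diamonds are filled below 0, and 1 circle but 8 diamonds above it.

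In the beta ring all 7 members passed the test as lower in KO tumours than in KO livers under the main scaling, from -0.61 (Psmb2) to -1.15 (Psmb5), and none passed in either direction under quantile scaling. The alpha ring, which gates entry to the core, had 5 of 7 measured members lower under the main scaling and 3 under quantile scaling. Of all genes 29.6% were lower under the main scaling, and 24.5% lower and 24.8% higher under quantile scaling. Psma3 was at 3.70, 4.40, 3.66, 3.90 and 3.83 in KO tumours, against 5.71, 5.66, 5.70 and 5.84 in KO livers. Every KO tumour was more than 1 log2 unit below every KO liver. The change was -1.83 ± 0.23, adjusted p = 5.42e-06, and -0.88 (adjusted p = 0.000255) under quantile scaling. Psma6 (-1.17 ± 0.23, adjusted p = 0.000379) and Psma4 (-0.94 ± 0.21, adjusted p = 0.00148) were lower under both scalings. Psma7 was uncalled at -0.41 under the main scaling and higher at 0.58 under quantile scaling.

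Among the 6 ATPases of the 19S base, which unfold substrates, 4 were lower in KO tumours under the main scaling (29.6% of all genes). Under quantile scaling 2 were lower and 2 higher (24.5% and 24.8% of all genes), which is near those shares. Psmc1 was at 4.48, 4.60, 4.29, 4.31 and 4.15 in KO tumours, against 5.74, 5.71, 5.78 and 5.91 in KO livers (change -1.42 ± 0.18, adjusted p = 6.51e-06). The groups did not overlap, and the second probe of Psmc1 gave -1.22. Psmc6 (-1.22 ± 0.29, adjusted p = 0.0023) was lower under both scalings. Psmc2 (-0.83 ± 0.23, adjusted p = 0.00569) was at 0.07 under quantile scaling. Psmc4 and Psmc5, uncalled at 0.28 and -0.04, were the members higher under quantile scaling (0.80 and 0.43).

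Of the 11 non-ATPase subunits of the cap, 6 were lower in KO tumours under the main scaling (29.6% of all genes). Under quantile scaling none was lower and 4 were higher, against 24.5% and 24.8% of all genes. Psmd12, a lid subunit, had a change of -1.08 ± 0.21, adjusted p = 0.000471, Psmd11 of -0.78 ± 0.21, adjusted p = 0.0059 and Psmd3 of -0.83 ± 0.24, adjusted p = 0.00798. The second probe of Psmd12 gave -0.61. The 3 changes were -0.29, -0.42 and 0.16 under quantile scaling. Psmd1 and the ubiquitin receptor Psmd4 were lower under the main scaling (-0.58 and -0.62) and higher under quantile scaling (0.31 and 0.42). Psmd14, the deubiquitinase of the lid, was uncalled at -0.15.

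The 7 assembly chaperones split. Psmg1, which pairs with Psmg2 to build the alpha ring, was at 2.97, 3.25, 2.76, 3.39 and 2.45 in KO tumours, against 4.38, 4.29, 4.35 and 4.07 in KO livers (change -1.31 ± 0.19, adjusted p = 2.67e-05). Every KO tumour was below every KO liver. Psmd9, which helps to assemble the base, was lower too (change -1.16 ± 0.21, adjusted p = 2e-04), and both genes passed under both scalings. The second probe of Psmd9, above background on all 21 arrays, gave -0.44, and that of Psmg1 gave -0.94. Psmd5, another base chaperone, was lower under the main scaling (-0.51 ± 0.20, adjusted p = 0.041) and uncalled at -0.37 under quantile scaling. Psmg2 itself was uncalled at -0.13.

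Psmd10 (gankyrin), a base chaperone known as an oncoprotein in human liver cancer that promotes the degradation of RB and p53, was higher in both kinds of tumour. It was at 2.02, 1.59, 1.21, 0.65 and 0.75 in KO tumours, against 0.45, 0.40, 0.52 and 0.29 in KO livers. DEN tumours had 1.195, 1.202, 1.29, 0.92 and 1.13, against 0.69, 0.29, 0.50 and 0.14 in WT livers. In neither pair did the groups overlap. The change was 0.83 ± 0.24 (fold 1.78, adjusted p = 0.00789) in KO tumours and 0.74 ± 0.24 (fold 1.67, adjusted p = 0.0341) in DEN tumours. Its second probe gave 0.97 and 1.13. On the scan day shared by KO tumours and KO livers the change was 1.19 (adjusted p = 0.00171). The call in DEN tumours was lost in 7 of 18 fits that left out a mouse, with changes of 0.66 to 0.84, and slide as a random block ended both calls (adjusted p = 0.121 and 0.347). KO and DEN tumours differed by 0.10 ± 0.22 (adjusted p = 0.732, 95% interval -0.38 to 0.57).

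The activators differed from each other in KO tumours. Psme3, whose ring activates the core in the nucleus without ubiquitin, was at 1.02, 2.87, 1.18, 4.44 and 3.44 in KO tumours, against 5.12, 5.03, 4.32 and 5.62 in KO livers. DEN tumours had 5.49, 5.50, 6.34, 4.91 and 5.19, against 5.62, 5.43, 2.90 and 2.54 in WT livers. In KO tumours 1 mouse lay inside the range of KO livers, and WT livers formed a high and a low pair. Psme3 was lower in KO tumours than in KO livers (change -2.43 ± 0.72, adjusted p = 0.00957) and than in DEN tumours (change -2.89 ± 0.68, adjusted p = 0.0018), on a single probe. Without the bright arrays of KO tumour mice 4 and 5 these changes were -3.33 and -3.79.

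Psmf1 was at -1.23, -1.58, -1.99, -2.04 and -1.97 in KO tumours, against -0.80, -0.52, -0.88 and -0.77 in KO livers (change -1.02 ± 0.18, adjusted p = 0.000193). Every KO tumour was below every mouse of the other groups. Psme1 (-0.72 ± 0.16, adjusted p = 0.00137) and Psme2 (-0.81 ± 0.20, adjusted p = 0.00236), the interferon-inducible PA28 pair, were lower under the main scaling, but at 0.02 and 0.22 under quantile scaling. The probes of Psme2 disagreed, since another probe, above background on 15 arrays, gave 1.97. Psme4 was uncalled at -0.08 ± 0.26, adjusted p = 0.812.

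**Figure D4:**
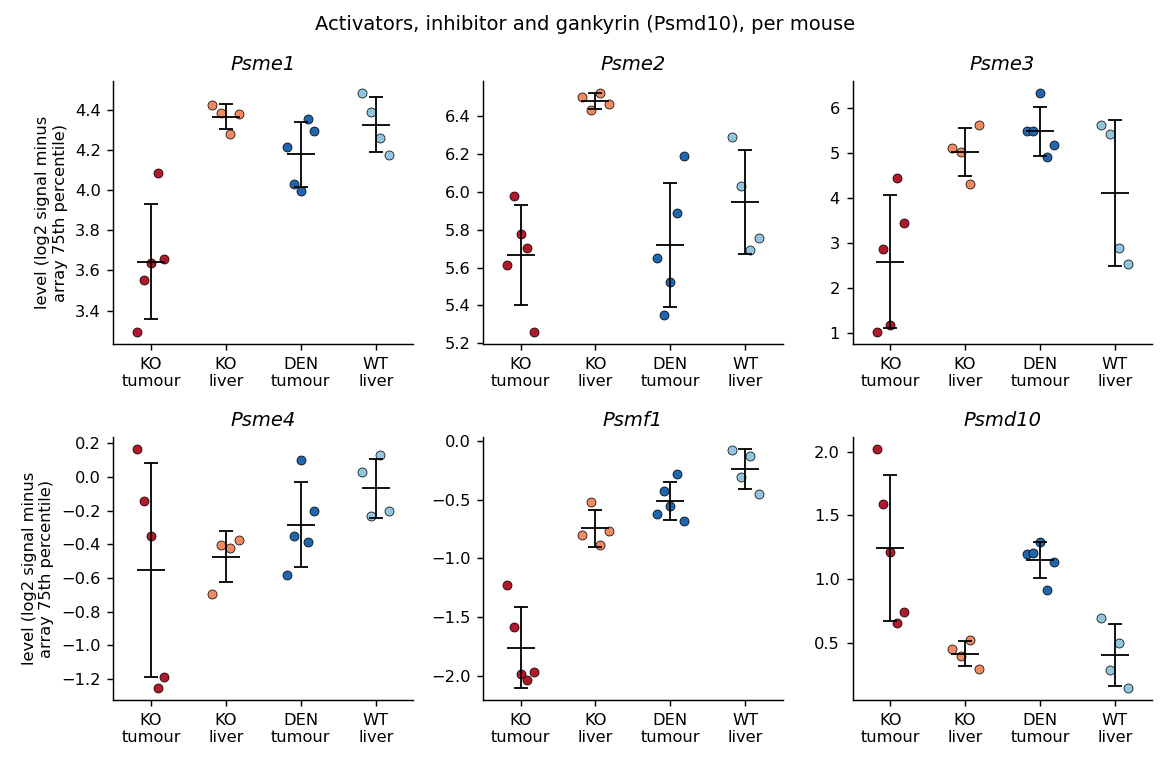
Levels per mouse, as log2 signal minus the array's 75th percentile, of the activators Psme1 to Psme4, of Psmf1 and of Psmd10. Points are mice and bars are mean ± SD of 5 KO tumour, 4 KO liver, 5 DEN tumour and 4 WT liver mice. Psme3 spans 1.02 to 4.44 in KO tumours and 2.54 to 5.62 in WT livers, Psmf1 is lowest in KO tumours, and Psmd10 is higher in both tumour groups than in their livers.

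Between DEN tumours and WT livers constitutive members were called lower about as often as all genes under the main scaling. Of 43 members 5 were lower, against 11% of all genes, and 1, Psmd10, was higher, against 10.6%, with a median change of -0.28 for the members and 0.04 for all genes. Psmb7 was at 2.51, 1.36, 1.91, 2.27 and 2.18 in DEN tumours, against 3.39, 2.85, 2.83 and 2.64 in WT livers (change -0.88 ± 0.29, adjusted p = 0.0373). The groups did not overlap. The other members lower in DEN tumours were Psma3 (-0.75 ± 0.23, adjusted p = 0.0257), Psma5 (-0.67 ± 0.22, adjusted p = 0.0381), Psmd9 (-0.72 ± 0.21, adjusted p = 0.0204) and Psmd11 (-0.76 ± 0.21, adjusted p = 0.0184). Of the 5, Psma3, Psmd9 and Psmd11 were also called under quantile scaling, and none was called with slide as a random block or without WT liver mouse 1.

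Other core and activator genes did not pass in that comparison. Psmb5 had a change of -0.39 ± 0.25, adjusted p = 0.3, and Psmb10 of -0.18 ± 0.22, adjusted p = 0.618. Psmb6 had -0.63 ± 0.27, adjusted p = 0.108, and passed under quantile scaling (-0.52, adjusted p = 0.0392). Psme3 had 1.36 ± 0.72, adjusted p = 0.197, with WT livers spread from 2.54 to 5.62. Psme1, Psme2 and Psme4 were at -0.15, -0.23 and -0.22.

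In KO tumours against DEN tumours the constitutive members were called lower about as often as all genes under the main scaling. Of the 43 members 16 were lower, against 37.5% of all genes, and none was higher, against 19.8%, by limma under the main scaling. The members' median of -0.34 was close to the -0.33 of all genes. With quantile scaling 13 were lower (28.3% of all genes), 8 were higher (24.9%) and the medians were -0.03 and -0.04. Called lower under both scalings were Psma4, Psmc6, Psmd5, Psmd6, Psmd7, Psmd8, Psmd9, Psmd12, Psmd14, Psme3, Psmf1 and Psmg1, 12 in all. With slide as a random block 9 of the 12 were called, and Psmc6, Psmd5 and Psmd14 were not (adjusted p = 0.137, 0.0831 and 0.129). That fit used single arrays and called 9165 of 23568 genes, 68.4% of them lower. The share of all genes called under both scalings was not counted.

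Psmf1 was at -0.62, -0.43, -0.55, -0.28 and -0.68 in DEN tumours, above every KO tumour (change -1.25 ± 0.17, adjusted p = 2.31e-05). The lid subunits Psmd12 (-0.88 ± 0.20, adjusted p = 0.00151), Psmd6 (-0.72 ± 0.17, adjusted p = 0.00179) and Psmd7 (-0.56 ± 0.13, adjusted p = 0.002) were lower in KO tumours with no overlap between the groups. Psmg1 was lower too (-0.86 ± 0.18, adjusted p = 0.000738), again without overlap. Psmc1 (-0.77 ± 0.17, adjusted p = 0.00108) and Psma3 (-0.89 ± 0.21, adjusted p = 0.00217) were lower under the main scaling only. Psma4 (-0.79 ± 0.20, adjusted p = 0.00332), Psmc6 (-0.69 ± 0.28, adjusted p = 0.0432), Psmd9 (-0.68 ± 0.20, adjusted p = 0.00785, with -0.29 for its second probe) and Psmd5 (-0.50 ± 0.19, adjusted p = 0.0314) passed under both, and Psma6 (-0.72 ± 0.21, adjusted p = 0.00896) under the main scaling only, with overlap in each case. Psmb5, Psmb6 and Psmb7 had changes of -0.52, -0.11 and -0.15, of which none passed, and quantile scaling put Psmb6 higher (0.55, adjusted p = 0.00998). Psme1 was lower under the main scaling (-0.53 ± 0.15, adjusted p = 0.00717), and Psme2 and Psme4 were uncalled at -0.05 and -0.27. Psmb8 (0.44 ± 0.18, adjusted p = 0.0503) and Psmb10 (0.29 ± 0.21, adjusted p = 0.246) missed the threshold, and both passed under quantile scaling (0.74 and 0.82). On the shared scan day the change of Psmb10 was -0.12.

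**Figure D5:**
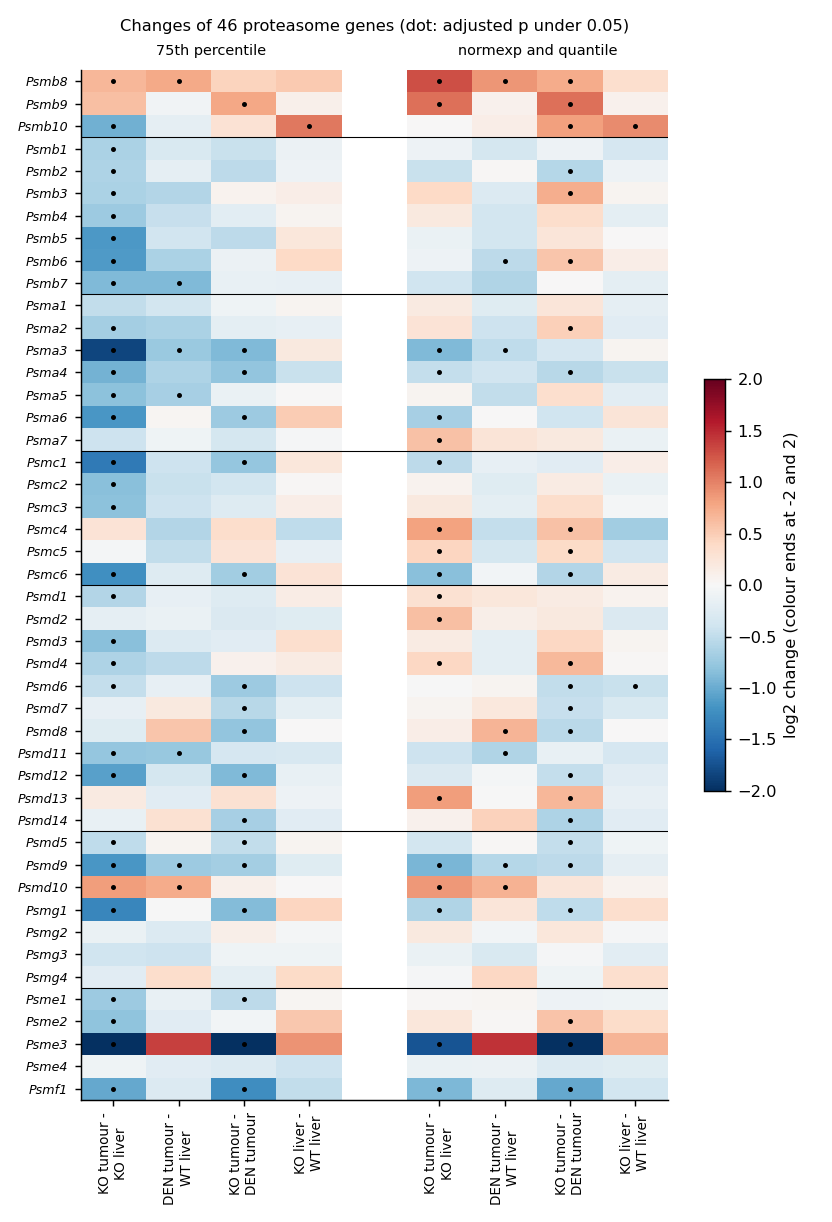
Log2 changes of 46 proteasome genes in 4 comparisons, each column the first group minus the second, on the left with the 75th percentile and on the right with normexp and quantile normalization. Rows run by role, a black dot marks an adjusted p under 0.05, and colours end at -2 and 2. In KO tumours against KO livers 29 constitutive members are marked lower on the left, against 9 lower and 8 higher on the right.

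Between KO livers and WT livers few proteasome genes were called, as few of all genes were. WT livers were spread. Of the 43 constitutive members, 5 to 41 were above the mean of the livers in single WT livers, and 16 to 33 in single KO livers. No constitutive member was called higher by limma, against 1.83% of all genes, or lower, against 6.64%, and under quantile scaling the counts were 0 and 1 (2.55% and 4.92%). The medians were 0.01 for the members and -0.05 for all genes. Psmb10 was the exception among the 46 members, as given above. Psme2 (0.54 ± 0.21, adjusted p = 0.124) had KO livers above WT livers without overlap but did not pass. Psmb8 had 0.53 ± 0.21, adjusted p = 0.128. Psmb5, Psmb6, Psmb7 and Psmb9 had changes of 0.23, 0.40, -0.16 and 0.10, and Psme1, Psme3 and Psme4 of 0.04, 0.90 and -0.41.

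The tumour effects themselves differed for 6 of 43 constitutive members, each with a negative difference, against 18.3% of all genes, and for none with a positive one, against 12.6%. The members were thus called no more often than all genes. The difference, the change of KO tumours against KO livers minus that of DEN tumours against WT livers, was -3.79 ± 1.02, adjusted p = 0.0105 for Psme3, -1.30 ± 0.27, adjusted p = 0.0023 for Psmg1 and -1.22 ± 0.32, adjusted p = 0.00963 for Psma6. It was -1.08 ± 0.32, adjusted p = 0.0181 for Psma3, -0.997 ± 0.25, adjusted p = 0.00767 for Psmc1 and -0.75 ± 0.26, adjusted p = 0.0376 for Psmf1. Psme3, Psmf1 and Psmg1 were called under both scalings. Under quantile scaling 3 differences were negative (14.5% of all genes) and 5 positive (15.4%), and with slide as a random block no negative difference was called.

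Genes that work with the particle were set beside the members. Of 12 measured proteasome-associated genes KO tumours had 6 lower and 1 higher than KO livers, against 29.6% and 21.6% of all genes. Ddi2, a protease that activates the proteasome gene regulator NFE2L1, was lower (change -1.63 ± 0.18, adjusted p = 1.6e-06), as was Ngly1, which removes its sugars (-1.62 ± 0.20, adjusted p = 5.91e-06). Both passed under quantile scaling too (-1.28 and -1.03). Nfe2l1 itself was higher (0.64 ± 0.23, adjusted p = 0.0288), a call that quantile scaling ended (0.26, adjusted p = 0.225). Ddi2 was lower in DEN tumours than in WT livers as well (-1.41 ± 0.18, adjusted p = 4.59e-05), the single gene of the 12 that passed there. KO tumours against DEN tumours had 3 of the 12 lower, where 37.5% of all genes were, among them Ngly1 (-1.39 ± 0.19, adjusted p = 2.23e-05) and Rad23b, a shuttle of ubiquitinated proteins (-0.68 ± 0.15, adjusted p = 0.00106), and 1 higher, Nfe2l1 (1.16 ± 0.22, adjusted p = 0.000304). In KO livers against WT livers Rad23b alone of the 12 passed, as lower (-0.61 ± 0.17, adjusted p = 0.0308).

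The 9 genes of antigen processing and interferon signalling reported here included 3 higher and 3 lower in KO tumours than in KO livers, where 21.6% of all genes were higher and 29.6% lower, so these counts are near those shares. The peptide transporter genes Tap1 (1.81 ± 0.26, adjusted p = 2.19e-05) and Tap2 (1.21 ± 0.19, adjusted p = 5.9e-05) were higher, also under quantile scaling (1.09 and 2.02). Erap1, which trims peptides, was lower under both scalings (-1.37 ± 0.22, adjusted p = 6.11e-05). The class I heavy chain gene H2-K1 was lower under the main scaling (-0.97 ± 0.16, adjusted p = 8.8e-05) and at 0.21 under quantile scaling. In DEN tumours against WT livers Tap2 was higher (0.66 ± 0.19, adjusted p = 0.0205). KO tumours against DEN tumours had Tap2 (0.85 ± 0.18, adjusted p = 0.00086) and Tapbp, the peptide-loading tapasin gene (0.71 ± 0.21, adjusted p = 0.00775), higher, and 3 genes lower that included H2-K1 (-0.74 ± 0.15, adjusted p = 0.000587) and B2m, the class I light chain gene (-0.92 ± 0.22, adjusted p = 0.00232), with quantile values of 0.20 and -0.26. Tap1 was lower in KO livers than in WT livers (-1.03 ± 0.27, adjusted p = 0.0287), a call that quantile scaling ended (-0.57, adjusted p = 0.0756).

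The median SD over the 46 members was 0.399 in KO tumours, 0.124 in KO livers, 0.264 in DEN tumours and 0.286 in WT livers, below the medians over all genes of 0.598, 0.213, 0.422 and 0.364 for these groups. All 46 members were above background on every array, and the medians over all genes were not matched to them for brightness. Psme3 had the widest SD in KO tumours (1.47), KO livers (0.54) and WT livers (1.62), and Psmb9 in DEN tumours (0.54).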

How the data were processed

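RNA of 21 liver or tumour samples was hybridised to one-colour Agilent arrays, 1 sample each. The deposited intensity values are the authors' processed signals from Agilent Feature Extraction 10.7.3.1, per the submitters' processing notes and the file headers. The authors' deposited log2 values, used as an alternative, had column medians of -0.573 to 0.297, and differences between arrays matched those of the scanner files with the same direction. Their centring is not described in the sources used here.

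From the intensities, log2 values minus the array's 75th percentile over 39429 non-control probes were computed, outlier spots were removed (969 values missing) and tumours of 1 mouse were averaged, giving 18 mice. The brightest probe over all arrays stood for a gene. Genes well above background on at least 4 arrays were fitted with limma 3.58.1 in R 4.3.3 (with data.table, 1.17.8), with 4 group means and 5 contrasts, and p-values were adjusted by the Benjamini-Hochberg method over all 23568 genes. A call is an adjusted p under 0.05. The number of arrays limits the precision, and the labels do not say how samples of a group were obtained beyond the mouse number, so p-values measure the spread between these samples. The fits were tested on simulated data.

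Members and lists were chosen with earlier results of these data known. Named in each comparison were Psmb5 to Psmb10, Psme1 to Psme4, up to 3 members a direction of each role group by smallest adjusted p, and up to 2 of each list of other genes. Some genes of those lists are not reported here. Alternatives were normexp (offset 50) with quantile normalization, the median of detected probes, the authors' values, no filter, the mean of all probes, every array as a sample, slide and scan day as blocks, scan day 1 alone, omission of the bright KO tumour arrays and of each mouse. The fits with blocks and with scan day 1 alone used single arrays. In the block fits tumours of 1 mouse were therefore separate samples. The normexp and quantile version used the mean spot signal and the median background signal in place of the processed signal, and kept outlier spots. The effects of these steps and of quantile normalization itself were not told apart. Promoter windows came from RefSeq tables of GRCm38.p6, and probe positions from the files (mm9), with no conversion.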

Additional observations from a re-analysis of the deposited data

Results flagged for a closer look

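In 7 of 184 groups of values, which hold 4 or 5 mice of 1 member each, a single mouse stood apart from the rest by Dixon's criterion, and chance flags about 1 in 20 groups. In KO tumours, mouse 5 was lowest for Psmb5 at 4.95 (next 5.91) and for Psmd2 at 3.14 (next 3.88). Its arrays were among the bright ones. In KO livers, mouse 2 was lowest for Psmg3 at 1.79 (next 1.92) and mouse 1 for Psme4 at -0.69 (next -0.42). In DEN tumours, mouse 2 was lowest for Psmd6 at 2.64 (next 2.85) and Psmd7 at 1.85 (next 2.12), and mouse 3 for Psmg4 at 0.755 (next 1.23).

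For 6 members the change of KO tumours against KO livers differed from that of DEN tumours against WT livers by a test of the difference itself (limma adjusted p). Each difference was negative, and 18.3% of all genes had a called negative difference, so the members were called no more often than all genes. The difference was -3.79 for Psme3 (adjusted p = 0.0105), -1.30 for Psmg1 (0.0023), -1.22 for Psma6 (0.00963), -1.08 for Psma3 (0.0181), -0.997 for Psmc1 (0.00767) and -0.75 for Psmf1 (0.0376). Of the 6, Psme3, Psmf1 and Psmg1 alone were also called under quantile scaling, and none was called with slide as a random block. No slide held more than 1 of the 4 groups that enter these differences, so slide and group cannot be told apart.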

How the results depend on the processing

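Under normexp and quantile normalization, the changes with the opposite sign in KO tumours against KO livers, where either setting made a call, were Psma2 0.28, Psma5 0.0517, Psma7 0.58, Psmb3 0.40, Psmb4 0.19, Psmb10 0.0094, Psmc2 0.0676, Psmc3 0.20, Psmc5 0.43, Psmd1 0.31, Psmd2 0.60, Psmd3 0.16, Psmd4 0.42, Psme1 0.0187, Psme2 0.22 and H2-K1 0.21. In KO tumours against DEN tumours they were Psma2 0.47, Psmb6 0.55, Psme2 0.57 and H2-K1 0.20, and for the difference of tumour effects Psmb3 0.67, Psmd4 0.62 and H2-K1 0.22. With the mean of all probes Psme2 was at 0.0737 in KO tumours against KO livers. The cause was not tested. The counts of constitutive members called under quantile normalization were 8 higher and 9 lower in KO tumours against KO livers, 8 higher in KO tumours against DEN tumours, 2 higher in DEN tumours against WT livers, 1 lower in KO livers against WT livers, and 5 higher and 3 lower for the difference. The shares of all genes, in the same order, were 24.8% and 24.5%, 24.9%, 11.1%, 4.92%, and 15.4% and 14.5%. Slide as a random block left 0 higher and 13 lower in KO tumours against KO livers, 0 and 0 in DEN tumours against WT livers, and 0 lower for the difference. Of 23568 genes it called 6668 (57.2% of them lower), 424 (29.7% lower) and 796 (60.2% lower) in these comparisons. Scan day as a block and scan day 1 alone each gave 2 higher in KO tumours against KO livers, with 20 and 22 lower. They called 12635 and 12956 of all genes in that comparison, 54.9% of them lower in each fit. Without the bright KO tumour arrays there were 2 higher and 21 lower in KO tumours against KO livers, 2 higher in KO tumours against DEN tumours, 1 higher for the difference and 10 lower in DEN tumours against WT livers. Of all genes that fit called, in the same order, 12763 (55% of them lower), 13874 (61.9% lower), 9165 (56.2% lower) and 6777 (50.5% lower). The median of detected probes gave 21 lower in KO tumours against KO livers. No filter gave 3 lower in DEN tumours against WT livers, and the mean of all probes 1 lower in KO livers against WT livers. In these 3 fits the genes called among all genes were 11711 (51.6% of them lower), 4710 of 30222 (53.2% lower) and 1956 of 23580 (81% lower).

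Leaving out each mouse in turn gave, in KO tumours against KO livers, 1 to 1 higher and 19 to 29 lower, in DEN tumours against WT livers 0 to 1 higher and 0 to 8 lower, in KO tumours against DEN tumours 0 to 1 higher and 13 to 18 lower, in KO livers against WT livers 0 to 0 in either direction, and for the difference 0 to 1 higher and 5 to 8 lower. These ranges stand without the shares of all genes in the same fits, so they describe stability only. The other genes' alternatives and the quantile version of the within-mouse differences were chosen after seeing the data. No paired analysis was possible because the replicate numbers do not tie tumours to livers of the same mice. Psma8 and Psmb11 were not well above background on enough arrays to be tested.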
